A study of Mus musculus with 10 samples.

Results

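The promoter shared by Kdm5a and Ccdc77 on mouse chromosome 6 carried one of the strongest RUNX1 ChIP-seq sites of mouse large biliary epithelial (MLE) cells, the epithelium of the larger bile ducts. The window from 120.29 to 120.47 Mb (GRCm39), in which the start sites of both genes lie near 120.341 Mb, was chosen by the fold enrichment of this site in the same libraries and by how little it differed between treatments. Those values are therefore given as a description, without a test. The window held 14 of the 64286 regions obtained by merging overlapping peaks of all libraries. Of the 6 RUNX1 ChIP libraries, 3 came from cells given TGFβ (10 ng/mL, overnight) and 3 from cells given vehicle. In each treatment, 2 libraries belonged to batch 1 (replicates 1 and 2) and 1 to batch 2 (replicate 3). Libraries are named by treatment and replicate number, which gives no order, and the labels do not say whether libraries of 1 treatment in batch 1 came from separate cultures. The 4 input libraries were not analysed here, and peak lists hold no expression values against which the cell type could be checked.

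RUNX1 is a transcription factor that binds DNA through its Runt domain together with the partner CBFβ and can activate or repress its targets. Kdm5a encodes a histone demethylase, also known as JARID1A or RBP2, which removes methyl groups from lysine 4 of histone H3, a mark of active promoters, and which was first described as a binding partner of the retinoblastoma protein. Ccdc77 encodes a coiled-coil domain protein. The genes are transcribed away from each other from a shared promoter, and their annotated 5′ ends overlap in the RefSeq gene table (GRCm38.p6). In that table the protein-coding gene beyond Ccdc77 was B4galnt3, a glycosyltransferase gene, and the gene beyond Kdm5a was Il17ra, which encodes a receptor subunit for interleukin-17 cytokines.

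The RefSeq promoter table matched 1 of the 2 genes, Ccdc77, and not Kdm5a. It lists 4 start sites for Ccdc77, each with 250 bases before and 50 after the start. The outermost is the one at the shared promoter, and the other 3 lie within the gene and overlap each other. The outermost window and 1 inner window are printed to show where the RUNX core letters occur. Capitals mark matches to the RUNX cores TGTGGT and TGCGGT and to the ETS core CCGGAAG, each searched on both strands. The coordinates of these sequences are GRCm38.p6 and were not converted to the build of the peaks, so their distance from the ChIP summits was not computed.
Ccdc77 outermost start, chr6:120364320-120364619, minus strand: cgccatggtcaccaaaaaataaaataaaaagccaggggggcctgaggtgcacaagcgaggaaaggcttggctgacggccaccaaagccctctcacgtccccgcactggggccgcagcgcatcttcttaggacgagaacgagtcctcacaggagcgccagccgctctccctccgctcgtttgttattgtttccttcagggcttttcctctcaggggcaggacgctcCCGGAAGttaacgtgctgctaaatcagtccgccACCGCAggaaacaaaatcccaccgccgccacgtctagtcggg
Ccdc77 inner start, chr6:120357420-120357719, minus strand: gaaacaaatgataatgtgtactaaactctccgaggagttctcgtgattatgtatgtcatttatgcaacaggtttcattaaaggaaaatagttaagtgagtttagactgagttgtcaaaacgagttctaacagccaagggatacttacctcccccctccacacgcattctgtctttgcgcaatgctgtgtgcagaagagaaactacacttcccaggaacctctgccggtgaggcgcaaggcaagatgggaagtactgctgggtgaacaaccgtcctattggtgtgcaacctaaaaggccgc

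The outermost window held 1 RUNX core, TGCGGT on the opposite strand, at positions 9 to 14 after the start. It also held 1 ETS core at positions -25 to -19. The inner window printed above, like the other inner windows, held no RUNX core of either form. Among 32851 promoter windows of the same length, 22.4% held either RUNX core, 6.45% held TGCGGT and 8.86% held the ETS core. A RUNX core of either form and the ETS core occurred together in 1.99%. In the outermost window the RUNX match ran directly into the letters GGAA on the strand shown. This arrangement, which was looked for after the sequence had been seen, occurred in 14 of the 32851 windows (0.0426%). Because the letters were taken from this window, the low share does not set the window apart. The outermost window had 22 CpG dinucleotides, against a median of 7 over all windows, and the inner window had 9. In the outermost window no match was found for the SP and KLF box GGGCGG (35.7% of all windows) or the CCAAT box (37.4%). It also held none for the AP-1 core TGANTCA (7.81%) or the NRF1 core GCATGCG (3.58%). The 3 inner windows each held a CCAAT box. These matches describe letters only and do not show which protein was bound.

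RUNX1 enrichment at the promoter was high with and without TGFβ. The deposited fold enrichment is the signal at the summit over the local background that the peak caller entered for that list. In batch 1 it was 41.6 and 52.8 in TGFβ libraries 1 and 2. The batch 1 vehicle libraries had folds of 46.0 and 53.9. In batch 2 the fold was 17.6 in TGFβ library 3 and 17.3 in vehicle library 3. The values of both treatments interleaved in batch 1 and nearly coincided in batch 2. Over all libraries the mean fold was 37.3 ± 18.0 with TGFβ (SD, n = 3) and 39.1 ± 19.2 with vehicle (SD, n = 3), a spread set by the batches. The ratio of geometric means of TGFβ to vehicle was 0.941 in batch 1 and 1.02 in batch 2. With 1 library left out, the treatments hold unequal shares of batch 2, so the ratio is read within batches.

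**Figure D1:**
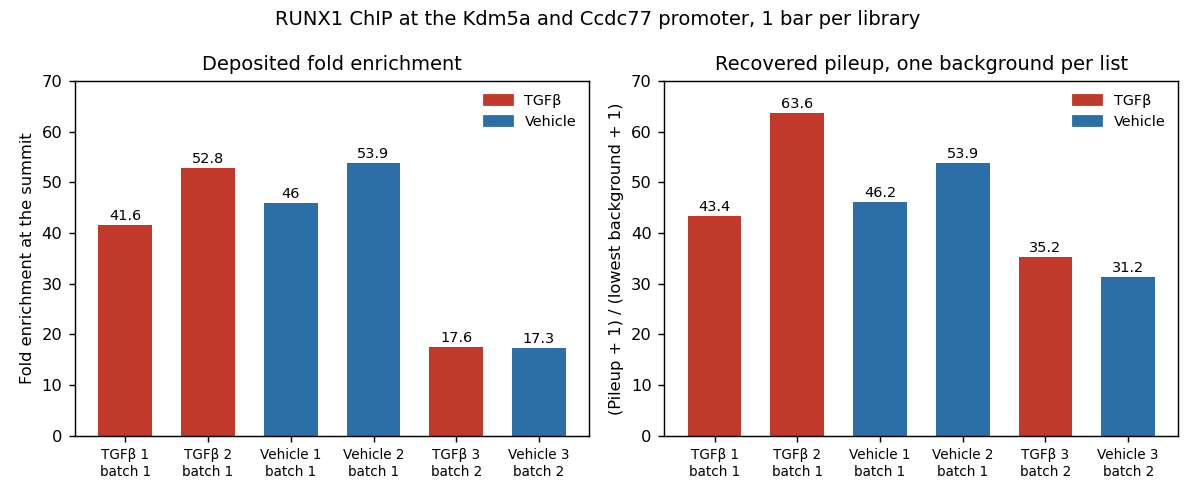
RUNX1 ChIP signal at the Kdm5a and Ccdc77 promoter in each library, as the deposited fold enrichment (left) and as the recovered pileup over the lowest background of the list (right, both plus 1). Each bar is 1 library, red for TGFβ and blue for vehicle. Folds lie between 41.6 and 53.9 in batch 1 and at 17.3 and 17.6 in batch 2, and the batches lie closer together on the right.

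The number of DNA fragments behind these folds could be recovered from the deposited fold and p-value of each peak. At the summit, 534 and 725 fragments overlapped in TGFβ libraries 1 and 2, and 538 and 666 in vehicle libraries 1 and 2. The counts were 406 in TGFβ library 3 and 399 in vehicle library 3. Exact 95% Poisson intervals, which cover counting error only, ran from 490 to 581 for TGFβ library 1 and from 493 to 585 for vehicle library 1. In batch 2 they ran from 367 to 447 with TGFβ and from 361 to 440 with vehicle. They ran from 673 to 780 for TGFβ library 2 and from 616 to 719 for vehicle library 2. These counts are not scaled for library depth, and the site was chosen partly for its lack of difference. The intervals therefore give the precision of each count and are no comparison of treatments. When each pileup was divided by the lowest background of its own list, the values were 43.4, 63.6 and 35.2 in TGFβ libraries 1, 2 and 3, and 46.2, 53.9 and 31.2 in vehicle libraries 1, 2 and 3. On this scale the ratio of TGFβ to vehicle lay above 1, at 1.05 in batch 1 and 1.13 in batch 2. The direction of the small treatment difference in batch 1 thus depended on the background used.

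The lower fold of batch 2 came with a higher local background at the promoter. The background entered by the peak caller was 2.10 times the lowest of the list in TGFβ library 3 and 1.87 times in vehicle library 3. In batch 1 it was 1.05 and 1.23 times the lowest with TGFβ, and 1.00 times in both vehicle lists. Among the 4087 regions called in all lists, the median in the batch 2 lists was 1.13 with TGFβ and 1.04 with vehicle, and 96.6% and 96.7% of those regions had a lower value than the promoter. Batch 1 exceeded batch 2 by 2.77-fold in deposited fold but by 1.54-fold in pileup over the lowest background. For the 4087 regions the medians of these ratios were 1.61 and 1.59. Which control library the caller used is not given in the sources used here.

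Regions called in every list mostly had higher folds with TGFβ, and their median ratio of TGFβ to vehicle was above that of the promoter in both batches. Over the 4087 regions this median was 1.42 in batch 1 and 1.22 in batch 2. In batch 1, 135 of them (3.30%) had a ratio below the 0.941 of the promoter, and in batch 2, 659 (16.1%) had one below its 1.02. With pileup over the lowest background the shares below were 6.53% in batch 1 and 23.9% in batch 2. Since the site was chosen partly for this lack of difference, its place in the distribution is a description. Of the 11360 regions called in all batch 1 lists, 68.7% had both TGFβ folds above both vehicle folds, and the promoter did not belong to them.

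**Figure D2:**
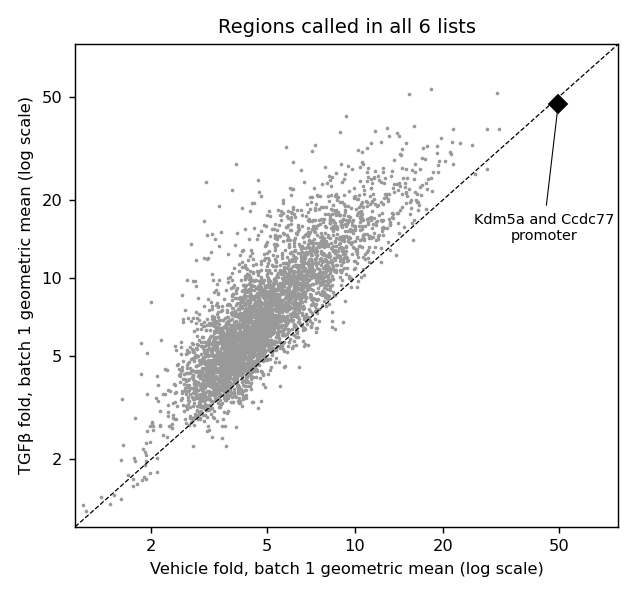
Geometric mean fold enrichment of the batch 1 libraries with vehicle (x axis) and TGFβ (y axis), both on log scales, for the 4087 regions called in all 6 lists. Each grey point is 1 region, the dashed line marks equal folds and the diamond is the Kdm5a and Ccdc77 promoter, at 49.8 with vehicle and 46.8 with TGFβ. Most points lie above the line, and the diamond lies just below it, at the highest vehicle value.

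The promoter ranked first by fold in vehicle libraries 1 and 2 alone. There its fold was 1.51 and 1.64 times that of the next peak, which lay on chromosome 17 with a fold of 30.5 and on chromosome 11 with a fold of 32.9. It ranked 3 of 16265 peaks in vehicle library 3. In the TGFβ lists it ranked 5 each time, of 33601, 42050 and 18790 peaks. The description as the strongest site therefore holds for the batch 1 vehicle lists and not for the other 4. By p-value it ranked 6, 4 and 7 in TGFβ libraries 1, 2 and 3, and 1, 1 and 7 in vehicle libraries 1, 2 and 3.

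The regions above it in both batch 1 TGFβ lists numbered 4. Their batch 1 ratios of TGFβ to vehicle were 1.69 at chr17:46382343-46386418, 2.94 at chr16:29630858-29634133, 3.34 at chr5:3199227-3204587 and 6.36 at chr15:28079186-28082889. The chromosome 5 region lies in a segment from 3 to 20 Mb described in this series as having a raised background. Without that segment the median rank of the promoter over the lists was 3.5, against 4 with it. The chromosome 15 region had folds of 41.9 and 57.8 in TGFβ libraries 1 and 2, against 6.68 and 8.97 in vehicle libraries 1 and 2. The change of rank between these lists thus came with higher folds of other regions, while the promoter had folds between 41.6 and 53.9. In both batch 2 lists the highest peak was on chromosome 11 with its summit at 108902730, at a fold of 25.5.

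The summits of the 6 lists fell within 42 bp of each other at the promoter, between 120341212 and 120341254. TGFβ libraries 1, 2 and 3 had summits at 120341253, 120341233 and 120341212. Vehicle replicates 1, 2 and 3 had theirs at 120341215, 120341254 and 120341252. Neither treatment nor batch separated these positions. Among the 4087 regions called in all lists, the median span was 290 bp, and 3.08% had a span of 42 bp or less, the promoter included. The other regions were weaker in batch 1 vehicle, with geometric mean folds of at most 31.3. Spans were not compared at matched fold.

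The called extent of the site differed more than its summit. In TGFβ libraries 1, 2 and 3 the peak holding the summit was 2056, 2584 and 955 bp wide, and in vehicle libraries 1, 2 and 3 it was 2335, 2221 and 970 bp wide. Mean widths were 1865 ± 831 bp (SD, n = 3) and 1842 ± 757 bp (SD, n = 3). On the lower-coordinate side the call reached 1315 and 1938 bp from the summit in TGFβ libraries 1 and 2, but 913 and 880 bp in vehicle libraries 1 and 2. Starts of both batch 1 TGFβ calls therefore lay outside those of both vehicle calls, with a gap of 364 bp, as they did for 54.5% of the regions called in all lists. In batch 2 the starts differed by 55 bp in the same direction.

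On the other side the peak holding the summit reached 740 and 645 bp from it in TGFβ libraries 1 and 2, and 1421 and 1340 bp in vehicle libraries 1 and 2. Both batch 1 TGFβ peaks thus ended short of both vehicle peaks, with a gap of 601 bp, and in batch 2 the TGFβ peak ended 70 bp short of the vehicle peak. A weak second peak with a fold of 2.24, 2.39 and 2.34 was listed farther out in TGFβ libraries 1 and 2 and in vehicle library 2. With it counted, the treatments overlapped, and the calls ended at 120343048 and 120342638 in the batch 1 TGFβ lists and at 120342636 and 120343614 in the batch 1 vehicle lists. With all peaks of a region counted, both batch 1 TGFβ calls ended beyond both vehicle calls in 55.3% of regions shared by all lists. The promoter was not among them, and the share of regions with TGFβ peaks ending short was not computed. Merged over all lists, the site ran from 120339295 to 120343614, a length of 4320 bp.

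**Figure D3:**
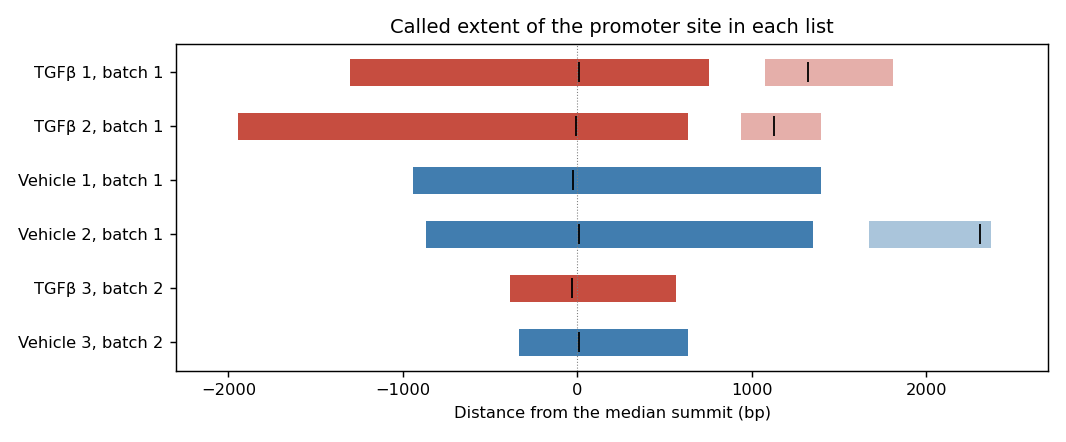
Peaks called at the Kdm5a and Ccdc77 promoter in each list, by distance from the median summit in bp. Bars are called peaks, red for TGFβ and blue for vehicle, paler for the weak second peak with a fold of 2.24 to 2.39, and black ticks are summits. The 6 main summits lie within 42 bp, and the batch 1 TGFβ bars reach farthest to the left, 1315 and 1938 bp from their summits.

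The other 13 sites of the window were much weaker than the promoter. Of the 40 peaks in the window, 31 lay outside the promoter site, with folds between 2.04 and 9.28. In each list the promoter exceeded the highest flanking peak, by 5.39, 5.69 and 6.32 times in TGFβ libraries 1, 2 and 3 and by 11.4, 17.0 and 7.46 times in vehicle libraries 1, 2 and 3. The promoter was the 1 site of the 14 called in all lists, a property of 6.36% of all merged regions. Without vehicle library 1, or without vehicle library 3, the sites called in all remaining lists became 2.

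Flanking sites were called more often with TGFβ. TGFβ libraries 1, 2 and 3 called 9, 9 and 5 of the 13, and vehicle libraries 1, 2 and 3 called 2, 3 and 1. In the same order these lists held 33601, 42050 and 18790 peaks with TGFβ and 14733, 21602 and 16265 with vehicle. The share of all merged regions called in each list was not computed. In TGFβ lists alone 10 of the 13 were called, and 3 in lists of both treatments. Over the genome 51.6% of merged regions were called in at least 1 TGFβ list and no vehicle list. Within each batch TGFβ lists were longer, and in lists cut to 14733 peaks 2 of 5 flanking sites were called with TGFβ alone. At a −log10 q of at least 5 it was 5 of 7. Under each of these settings 1 flanking site was called with vehicle alone, against 0 in the full lists. The genome-wide share was not computed under either setting. The counts under these settings were taken after the data had been seen, and the part of list length in the full count was not tested further.

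The flanking sites clustered at a distance. Of the 13, 10 lay between 89.0 and 119 kb from the promoter summit on the side of higher coordinates, the side of Kdm5a, in a stretch of 31.2 kb from 120429254 to 120460448. The remaining 3 lay 28.8 and 7.2 kb from the summit on the Ccdc77 side and 38.9 kb from it on the Kdm5a side. No gene table of the files' build was used, so these sites were not assigned to Kdm5a, Il17ra or any other gene.

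The site from 120442682 to 120444437, 102.5 kb from the promoter summit, was the strongest flank in batch 1. Its folds were 7.71, 9.28 and 2.04 in TGFβ libraries 1, 2 and 3. In vehicle libraries 1 and 2 they were 4.03 and 3.17, and it was not called in vehicle library 3. Both batch 1 TGFβ values lay above both vehicle values, as in the 68.7% of regions given above, while those of the promoter interleaved.

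The site from 120447214 to 120448845, 106.8 kb away, was called in every TGFβ list and in no vehicle list, as were 0.619% of all merged regions. Its folds were 7.30, 7.32 and 2.68 in TGFβ libraries 1, 2 and 3. A site 89.0 kb away, from 120429254 to 120430974, had folds of 6.0 and 7.57 in the batch 1 TGFβ lists and was called in no other list. In all, 4 flanking sites were called in both batch 1 TGFβ lists and neither batch 1 vehicle list, which held for 16% of all merged regions. Another of these 4 was the site from 120333393 to 120334640, 7.2 kb from the promoter on the Ccdc77 side, with folds of 2.66 and 3.49. The last of the 4, from 120445168 to 120446111, had folds of 2.35 and 2.37.

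The site from 120439785 to 120442245, 99.7 kb away, was called in 5 lists, with folds of 3.49, 4.73 and 2.78 in TGFβ libraries 1, 2 and 3 and 2.57 and 2.32 in vehicle libraries 2 and 3. Within each batch the TGFβ values lay above the vehicle value there, while vehicle library 1 did not call the site. The summits of this site were scattered over 638 bp, against 42 bp at the promoter. At 118.9 kb, the site from 120459768 to 120460448 was called in the 4 batch 1 lists, where its folds overlapped between treatments, at 2.73 and 2.72 with TGFβ and 2.14 and 2.91 with vehicle. The 6 flanking sites called in 1 list each had folds between 2.27 and 3.07. A region missing from a list has no value there and may lie just under the calling threshold.

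**Figure D4:**
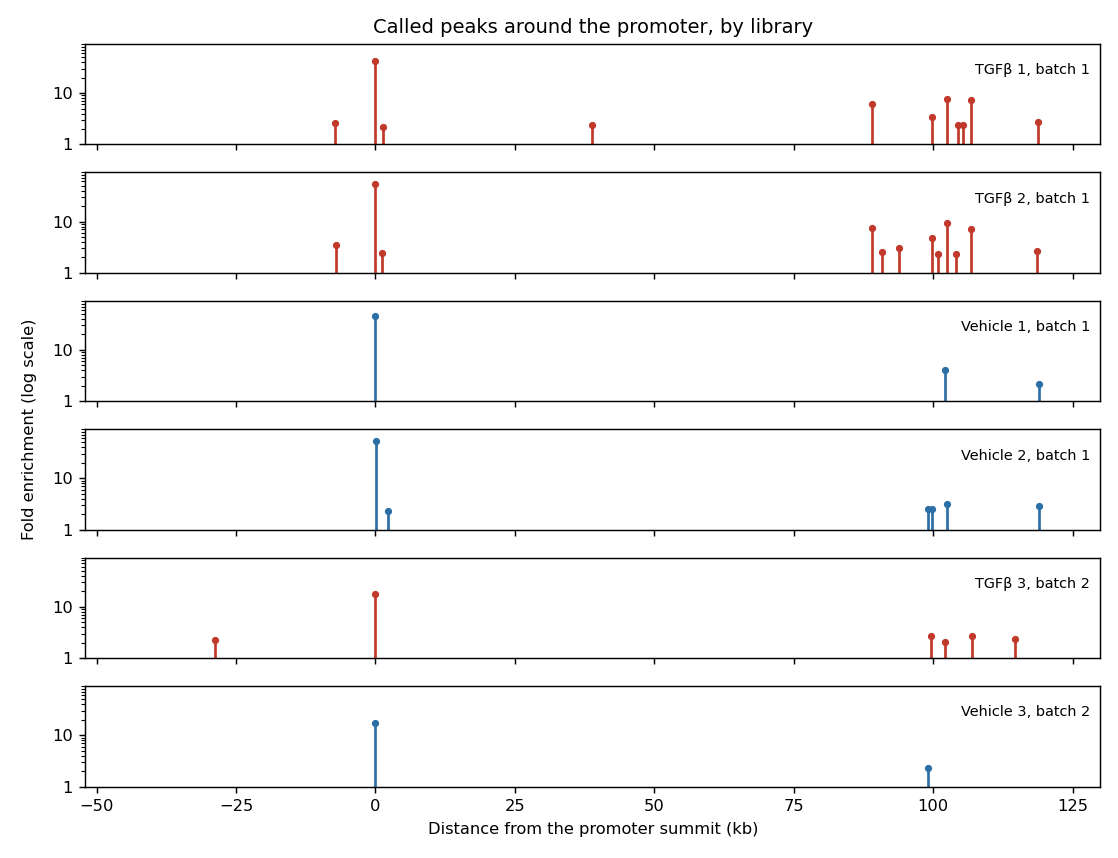
Peaks called in the window around the Kdm5a and Ccdc77 promoter, by distance from the promoter summit in kb (x axis) and fold enrichment on a log scale (y axis), with 1 panel per library, red for TGFβ and blue for vehicle. Each line is 1 peak. The promoter stands at 0 in all 6 panels. Within each batch the group of peaks between 89.0 and 119 kb holds more lines in the TGFβ panels.

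At the borders of the window the nearest peaks were weak. The first peak inside it had a fold of 2.27 at 28.8 kb from the promoter, and the last before it a fold of 2.11 at 72.9 kb. The last peak inside had a fold of 2.91 at 118.9 kb, and the first beyond it a fold of 3.07 at 166.8 kb.

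The regions most like the promoter were sought among those called in all lists, by Euclidean distance between log2 folds over the 6 libraries. The closest was at chr11:60617108-60621243, at a distance of 1.31 log2 units. Its folds were 31.9, 44.4 and 14.1 in TGFβ libraries 1, 2 and 3 and 29.8, 32.9 and 10.5 in vehicle libraries 1, 2 and 3, so it was weaker than the promoter in every list. The next, at chr2:126515524-126519008 at 1.74 log2 units, had folds of 21.3, 32.4 and 13.8 with TGFβ and 24.6, 32.7 and 13.0 with vehicle, which interleaved in batch 1 as at the promoter. The remaining 3, chr16:32248288-32251041, chr17:46382343-46386418 and chr5:125465400-125472769, lay at 1.96, 1.97 and 2.04 log2 units. Of the 5 regions, the one on chromosome 2 alone had a lower geometric mean fold with TGFβ in batch 1, by a log2 difference of -0.11 against -0.09 at the promoter.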

How the data were processed

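RUNX1 ChIP-seq peak lists of 6 libraries were used, 1 list per library. Per the submitters' processing notes, DRAGEN, Trimmomatic, Bowtie2 2.5.2 and MACS2 were used with mm39 (GRCm39). Settings, filters and control library are not given in the sources used here. For every peak the deposited columns give fold enrichment (a ratio to local background), −log10 p, −log10 q and a score derived from q. The authors' lists all begin just above a −log10 q of 1.

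Peaks overlapping by at least 1 bp were merged genome-wide, and each list was represented by its peak with the highest −log10 q. Positions are 1-based. Pileup and background were recovered by assuming fold = (pileup + 1)/(background + 1) and a Poisson tail for p, which matched within 0.001 for 99.98% to 99.99% of peaks per list. The lowest background (5th percentile of the list) ran from 10.4 to 11.8 fragments. Read totals are unknown, so the lowest background of each list was used as the scale for its pileups. Analyses used Python 3.11.15, pandas 2.3.3, numpy 2.4.6 and scipy 1.17.1, and code was tested on simulated data.

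The members, lists and named regions (the members, the window's sites and the 5 regions nearest in fold) were chosen with earlier results of these data known. No test was run on the promoter, and 3 against 3 libraries could not reach below 0.1. Gene and promoter tables cover GRCm38.p6, so the planned counts over histone demethylase genes, KDM5 family members, KDM5A partners and genes starting in the window were not run. No column of per-sample values was left unmapped.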

Additional observations from a re-analysis of the deposited data

How the results depend on the processing

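Of 53 alternative values, 42 stayed within the spread between libraries or within 1.5 times the reported count, and 11 moved. The summit span (42 bp) and the median rank by fold (4) did not move beyond that under any alternative run. The log2 ratio of TGFβ to vehicle fold at the promoter was -0.05. It was -0.09 in batch 1 and -0.03 with both batches weighted equally, and turned to 0.11 with pileup over the lowest background. Leaving out 1 library gave -0.56 to 0.42, since the treatments then differ in their share of batch 2. The 14 sites of the window became 8 at a −log10 q of at least 5, 6 in lists of equal length and 4 in a window of 50 kb on each side, all by construction with fewer peaks, and 21 when summits within 200 bp were merged in place of overlapping peaks. Sites called in all lists ran from 1 to 2 when 1 library was left out. Flanking sites called with TGFβ alone numbered 10, and 5 and 2 under the stricter q and equal list length. Those called with vehicle alone numbered 0, and 1 under each of these settings. Libraries were not paired, since their numbers follow deposit order and not the labels. The count over demethylase genes was not run. Without read counts, an absent call bounds signal only through the threshold.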
